A study of Mus musculus with 15 samples.

Results

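Translation initiation factors were taken as the genes whose mouse symbol begins with Eif1 to Eif6, without Eif4ebp1 and without pseudogenes, and with a mean normalized count of at least 10. Of 68 symbols with that beginning among the 55291 genes of each table, 57 were left after these exclusions and 51 reached the mean, the same 51 in each table. They comprised 3 genes of eIF2, 5 of eIF2B, 4 eIF2 kinases, 14 of eIF3, 11 of the eIF4 group, 2 eIF4E-binding proteins and 12 other factors. The 6 symbols under the mean were Eif2c5, Eif2s3y, Eif4a3l1, Eif4a3l2, Eif4e1b and Eif4ebp3. Nearest below the threshold stood Eif4ebp3, with a mean of 2.31 normalized counts in the DON table and 8.73 in the tumor table, and nearest above it Eif3j2, with means of 39 and 18.2.

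RNA was sequenced from 15 samples in 5 groups of 3, all derived from HY19636, a mouse pancreatic ductal adenocarcinoma line. Per the study's methods the line came from tumors of mice with a p53 L/+ genotype. Cells in DMEM with 10% serum were controls, were treated with 25 µM DON for 24 h, or were kept without Gln (glutamine) for 24 h. DON (6-diazo-5-oxo-L-norleucine) is a Gln analog that blocks Gln-using enzymes, and DRP-104 is a prodrug of DON. Tumors grew from the same line in the pancreas of B6J mice aged 8 to 10 weeks and were collected on day 21, after 2 cycles of 5 days on and 2 days off of vehicle or DRP-104 at 3 mg per kg. All groups therefore carry the same tumor genotype from 1 cell line, and the tumors in addition hold host cells. No source used here says that the culture libraries came from separate cultures, so their p-values measure a spread between libraries that may be technical.

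Initiation of translation begins when eIF2 with GTP carries the initiator methionyl-tRNA to the small ribosomal subunit, on which eIF3 serves as a scaffold together with eIF1, eIF1A and eIF5. The eIF4F complex, made of the cap-binding eIF4E, the scaffold eIF4G and the helicase eIF4A, recruits the mRNA. After each round eIF2B reloads eIF2 with GTP. The kinases HRI (Eif2ak1), PKR (Eif2ak2), PERK (Eif2ak3) and GCN2 (Eif2ak4) phosphorylate the alpha subunit of eIF2 under heme shortage, double-stranded RNA, endoplasmic reticulum stress and amino acid shortage, respectively, and phosphorylated eIF2 inhibits eIF2B. RNA levels say nothing of that phosphorylation, which was not measured in these libraries. From protein blots the authors reported phosphorylation of the eIF2 alpha subunit with DON.

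Recovered totals were 25.2 to 48.2 M reads in culture libraries, with control library 3 the highest, and 16.3 to 20.7 M in tumors. They were derived from the normalized counts and are known only up to a common factor. Of low read numbers 69.6% to 72.7% were even in culture libraries and 41.9% to 46.5% in tumors. Depth in culture and depth in tumors are therefore not to be compared. All 7 epithelial markers examined (Krt8, Krt18, Krt19, Krt7, Epcam, Cdh1 and Cldn4) were detected in each group, and their summed level was 12578 to 14994 CPM (counts scaled to the library total) in control cells, 3933 to 4165 after DON and 5398 to 5998 without Gln. Ptprc, a marker of leukocytes, was at most 0.295 CPM in culture. In tumors the 7 fibroblast markers summed to 2061 to 4315 CPM with vehicle and 1018 to 1630 CPM with DRP-104, and the 7 T cell markers summed to 72.0 CPM in DRP-104 tumor 3 and at most 5.46 CPM in the other tumors. The part of these levels in the results below was not tested.

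In cultured cells the members split after DON. In limma tests on log2(normalized count + 1), 16 of 51 members were higher and 16 lower at an adjusted p under 0.05, the threshold used throughout. Of all 13556 genes tested 33.3% were higher, 34.7% lower and 68.1% changed, so the members' shares were near those of the table as a whole. Without Gln, 23 members were higher and 13 lower, beside 34.5% higher, 34.9% lower and 69.4% changed among 13390 genes. The 3 DON libraries did not overlap the 3 control libraries for 39 members (71.9% of all genes), and the same count of 39 held for Gln-free cells (73.6% of all genes). Scaling by total reads raised the median log2 change over the whole table from 0.02 to 0.17 after DON and from 0.01 to 0.11 without Gln. On that scale 25 members were higher and 13 lower after DON, and quantile normalization gave 25 and 12, so counts of rises after DON are relative to the size factors used.

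Medians differed between the groups of factors. After DON the median log2 fold change was 0.56 for eIF3, 0.22 for eIF2 and eIF2B together, -0.32 for eIF4 and -0.92 for the eIF2 kinases, against 0.02 for all genes. Without Gln these medians were 0.37, 0.45, -0.16 and -0.43, against 0.01 for all genes. The sign of each of these medians was the same under total-read scaling and quantile normalization. In total 12 members rose and 9 fell in both treatments, 7 were called in neither, and 3 were called in opposite directions. The shares of all genes with these patterns were not computed, so the counts are not read as a trait of the members. These comparisons share the control libraries, so each is given with its own values.

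**Figure D1:**
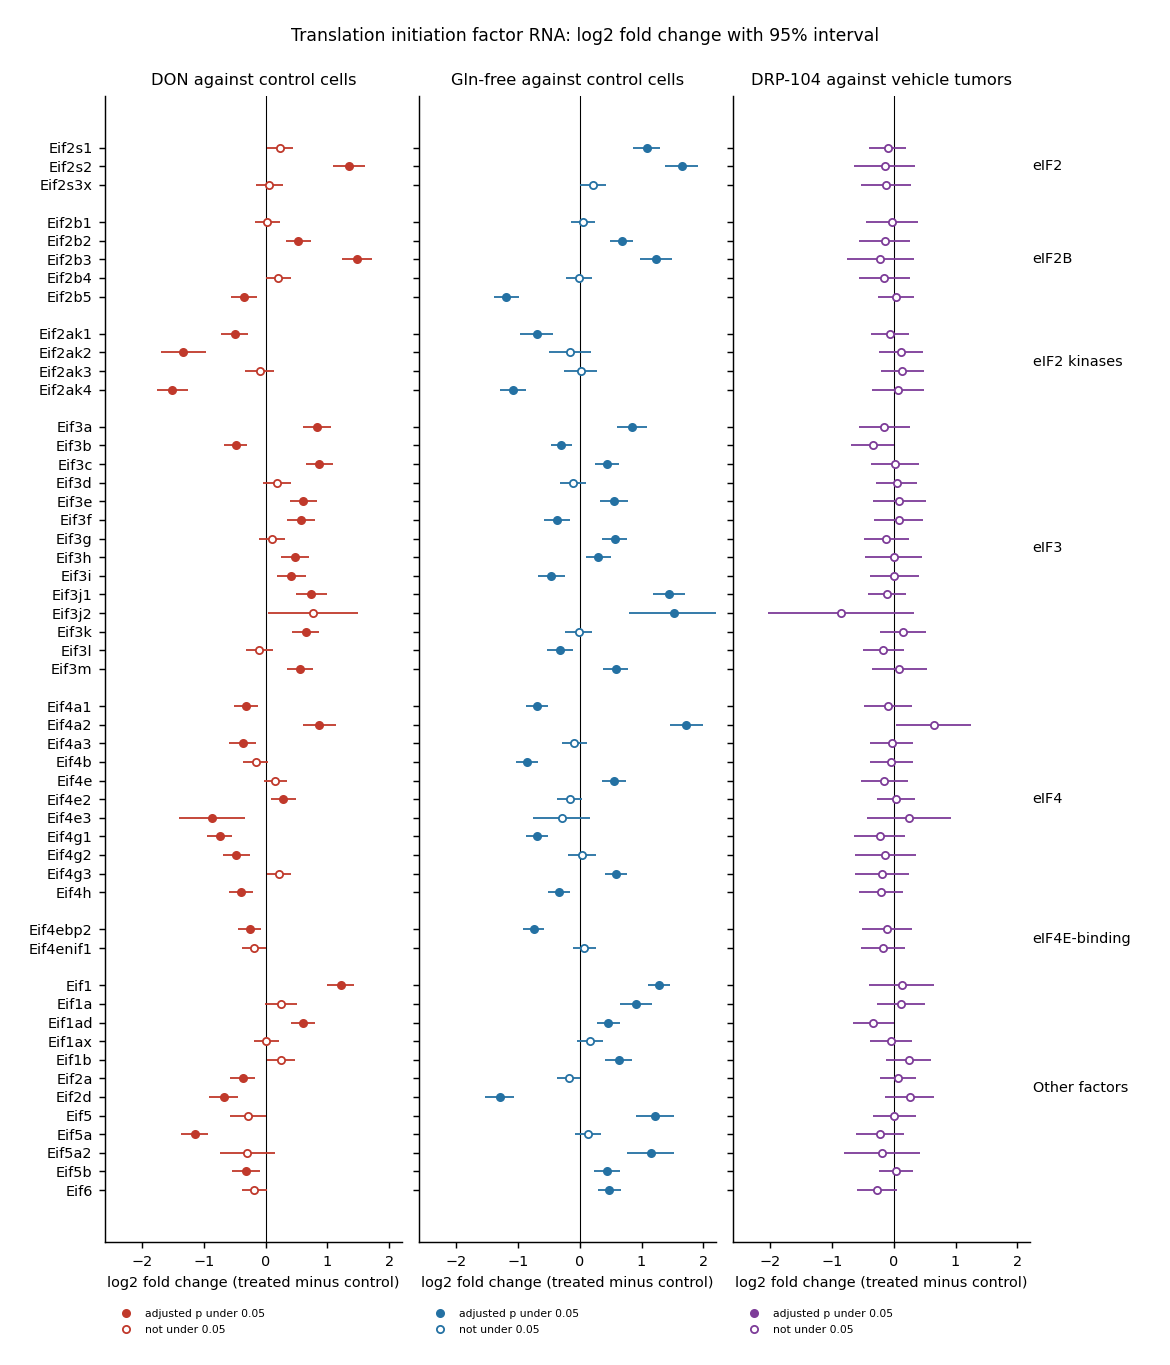
Log2 fold change of each of the 51 members (points) with its 95% interval (lines), treated minus control, in DON-treated cells, Gln-free cells and DRP-104-treated tumors (3 libraries per group). Filled points have a limma adjusted p under 0.05. The eIF3 members lie mostly right of 0 after DON, Eif2ak2 and Eif2ak4 lie left of it, and no point is filled in the tumor panel.

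The normalized counts given below for cells are on a scale common to the 9 culture libraries, and fold changes are from the deposited table of each comparison. Of the eIF2 subunits, the beta subunit gene Eif2s2 (chr2:154871410-154892935, minus strand, in GRCm38) rose in both treatments. Its normalized count was 4583, 4155 and 6066 in the control libraries, 12844, 12368 and 12230.5 after DON and 15934, 15210.2 and 14098 without Gln. All 6 treated libraries lay above the 3 controls. The log2 fold change was 1.35 ± 0.12 (SE, adjusted p = 1.9e-07) after DON and 1.65 ± 0.12 (SE, adjusted p = 1.3e-07) without Gln by limma, which correspond to 2.54-fold and 3.14-fold higher levels.

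The alpha subunit gene Eif2s1 (chr12:78861819-78887010, plus strand) encodes the protein that the kinases phosphorylate. It had normalized counts of 5532, 4875 and 6416 in the control libraries, 6760.2, 6699 and 6298 after DON and 12377, 11359.6 and 11131 without Gln. It rose without Gln (1.08 ± 0.10 (SE, adjusted p = 1.1e-06) on the log2 scale in limma), whereas after DON the highest control library, library 3, lay above the lowest DON library and the change of 0.23 ± 0.10 (SE, adjusted p = 0.056) was not called, though it was without control library 3, under quantile normalization, under total-read scaling and by edgeR on reads divided by 2. In the direct limma test, DON cells had less Eif2s1 RNA than Gln-free cells, at -0.82 ± 0.09 (SE, adjusted p = 1.4e-06). For Eif2s3x, the X-linked gamma subunit (chrX:94188707-94212862, minus strand), neither fold change passed the limma test, with 0.06 (95% interval -0.16 to 0.27) after DON and 0.21 (0.00 to 0.43) without Gln. Without Gln Eif2s3x was called higher under total-read scaling and without control library 3. Eif2s3x is uncertain because 35.3% of the 100-base windows of its longest transcript also occur in transcripts of another gene, Gm2223.

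Of the 5 eIF2B subunits, 2 rose and 1 fell in both treatments. Among all genes 33.3% rose and 34.7% fell after DON, and 34.5% rose and 34.9% fell without Gln. Eif2b3 (chr4:117019402-117087306, plus strand), the gamma subunit of the catalytic part of eIF2B, had normalized counts of 579.9, 473 and 543 in the control libraries, 1545, 1467 and 1459.9 after DON and 1353, 1249 and 1089 without Gln. Treated and control libraries did not overlap, with log2 fold changes of 1.48 ± 0.11 (SE, adjusted p = 4.1e-08) after DON and 1.23 ± 0.12 (SE, adjusted p = 1.3e-06) without Gln in limma. This was the largest rise of any member after DON.

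Eif2b5 (chr16:20498817-20509955, plus strand), which encodes the catalytic epsilon subunit that acts on the nucleotide of eIF2, moved the other way. Its normalized count was 6634, 6177 and 5397 in the control libraries, 4941, 4814 and 4508 after DON and 2578, 2455 and 2791 without Gln. The 3 groups did not overlap, and the fall was deeper without Gln, at -1.19 ± 0.09 (SE, adjusted p = 2.0e-07) against -0.36 ± 0.10 (SE, adjusted p = 0.0047) after DON in limma. The direct limma difference between DON and Gln-free cells was 0.87 ± 0.09 (SE, adjusted p = 4.2e-07). After DON the fall of Eif2b5 passed the threshold under total-read scaling but not under quantile normalization.

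Of the regulatory subunits, which bind phosphorylated eIF2, beta (Eif2b2, chr12:85219481-85226628, plus strand) rose and the others were not called. Eif2b2 had normalized counts of 2833, 2957 and 2536 in the control libraries, 4133, 4225 and 3727 after DON and 4482, 4475 and 4135 without Gln, with log2 fold changes of 0.53 ± 0.09 (SE, adjusted p = 2.1e-04) and 0.68 ± 0.09 (SE, adjusted p = 1.4e-05) in limma. For alpha (Eif2b1) the fold changes were 0.03 (95% interval -0.18 to 0.23) after DON and 0.05 (-0.14 to 0.25) without Gln. For delta (Eif2b4) they were 0.21 (0.00 to 0.41) and -0.01 (-0.22 to 0.20), and after DON Eif2b4 was called higher under total-read scaling, under quantile normalization and by edgeR on reads divided by 2.

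**Figure D2:**
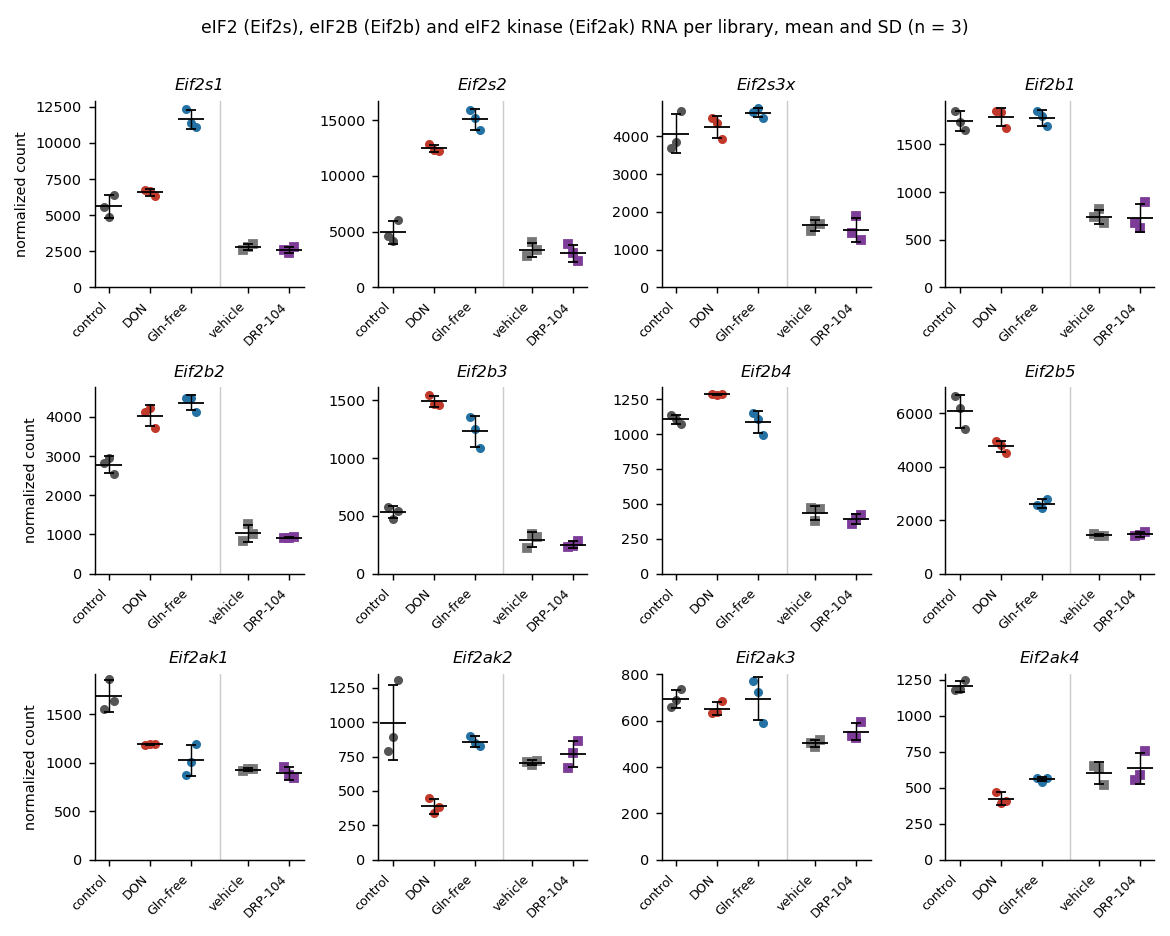
Normalized counts of the eIF2 subunits (Eif2s), eIF2B subunits (Eif2b) and eIF2 kinases (Eif2ak) in each library, with the mean and SD of 3 libraries. Circles left of the grey line are the 9 culture libraries on their common scale and squares right of it are the 6 tumors on the scale of their own table, so levels are not to be compared across that line. Eif2s2 and Eif2b3 stand higher and Eif2ak4 lower in both treated cell groups, Eif2ak2 is lower after DON, and the tumor groups overlap in 11 of the 12 panels.

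In RPKM, the reads of a gene divided by its length in kilobases and by the library total, which allows genes to be compared, the eIF2B genes of control cells were ordered Eif2b5 at 58.8 ± 3.96 (SD, n = 3), Eif2b2 at 53.4 ± 2.11, Eif2b1 at 26.8 ± 0.947, Eif2b4 at 16.9 ± 0.342 and Eif2b3 at 4.39 ± 0.512. The ranges of Eif2b5 and Eif2b2 overlapped. After DON Eif2b2 led at 85.1 ± 5.02 RPKM and Eif2b5 followed at 50.6 ± 2.05. Without Gln Eif2b5 stood at 27.7 ± 2.02 on this scale, beside 29.9 ± 1.15 for Eif2b1. Eif2b3 was the lowest of the 5 in each group of cells and tumors, and reached 13.5 ± 0.389 after DON.

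Of the 4 eIF2 kinases, 3 fell after DON and 2 without Gln (34.7% and 34.9% of all genes), and none rose (33.3% and 34.5% of all genes). The deepest fall was that of Eif2ak4 (chr2:118388618-118475234, plus strand), which encodes GCN2, the kinase that senses uncharged tRNA. Its normalized count was 1180.5, 1183 and 1248 in the control libraries, 473, 393 and 409 after DON and 566, 541 and 565 without Gln. Treated and control libraries did not overlap, with log2 fold changes of -1.51 ± 0.11 (SE, adjusted p = 4.5e-08) after DON and -1.09 ± 0.10 (SE, adjusted p = 6.7e-07) without Gln in limma. DON cells were lower than Gln-free cells in the direct limma test, at -0.39 ± 0.10 (SE, adjusted p = 0.0034).

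Eif2ak2 (chr17:78852564-78882573, minus strand), which encodes PKR, fell after DON and was not called without Gln. It had normalized counts of 789, 891 and 1304 in the control libraries, 448, 339.5 and 381 after DON and 902, 849.5 and 825 without Gln. Control library 3 was the highest of the 9 and the Gln-free libraries lay between the controls, with fold changes of -1.33 ± 0.17 (SE, adjusted p = 8.8e-06) after DON and -0.15 ± 0.16 (SE, adjusted p = 0.4) without Gln in limma. Without control library 3 these limma values were -1.13 and 0.06. The direct limma difference between DON and Gln-free cells was -1.15 ± 0.16 (SE, adjusted p = 1.2e-05).

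Eif2ak1 (chr5:143817788-143904256, plus strand), which encodes HRI, had normalized counts of 1553, 1869 and 1641 in the control libraries, 1186, 1198 and 1196 after DON and 872, 1015 and 1193 without Gln. It fell in both treatments, with fold changes of -0.51 ± 0.10 (SE, adjusted p = 4.7e-04) and -0.70 ± 0.12 (SE, adjusted p = 2.1e-04) in limma, and the Gln-free libraries spread more widely than the DON libraries. Eif2ak3 (chr6:70844515-70905245, plus strand), which encodes PERK, was called in neither, with log2 fold changes of -0.10 (95% interval -0.34 to 0.14) and 0.02 (-0.25 to 0.28). In RPKM, Eif2ak1 was the highest kinase of control cells at 12.1 ± 1.11 (SD, n = 3), and Eif2ak2 at 7.19 ± 2.3 and Eif2ak4 at 7.04 ± 0.531 did not differ beyond their spread. After DON Eif2ak4 at 2.72 ± 0.268 and Eif2ak2 at 3.06 ± 0.428 overlapped, and both lay below Eif2ak3 at 4.9 ± 0.251.

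Of the 14 eIF3 genes, 9 rose and 1 fell after DON (33.3% and 34.7% of all genes), and 12 rose under total-read scaling and under quantile normalization. On those scales the median log2 change of all genes was 0.17 and 0.13, and the share of all genes that rose was not computed. The largest rise was that of Eif3c (chr7:126546455-126566411, minus strand), a subunit of the core that contacts eIF1 and eIF5. It had normalized counts of 15364, 15618 and 12717 in the control libraries, 26454, 26508 and 26959 after DON and 20065, 19548 and 18601 without Gln. The 3 groups did not overlap, and its log2 fold change was 0.87 ± 0.10 (SE, adjusted p = 3.3e-06) after DON and 0.44 ± 0.09 (SE, adjusted p = 8.6e-04) without Gln in limma. The fall was that of Eif3b (chr5:140419305-140443358, plus strand), the scaffold subunit that holds Eif3g and Eif3i in the complex, with normalized counts of 17241, 17436 and 15512 in the control libraries, 11959, 12305 and 11695 after DON and 13707, 13183 and 13263 without Gln. The log2 change of Eif3b was -0.49 ± 0.09 (SE, adjusted p = 2.2e-04) after DON and -0.30 ± 0.08 (SE, adjusted p = 0.0049) without Gln in limma, and no library of either treatment reached the controls.

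Without Gln, 8 eIF3 genes rose and 4 fell (34.5% and 34.9% of all genes). The largest rise fitted by limma, 1.52 ± 0.34 (SE, adjusted p = 0.0013), belonged to Eif3j2, a low gene with normalized counts of 25.6, 19.5 and 40.9 in the control libraries, 44.5, 51 and 47.9 after DON and 107, 77.3 and 60.8 without Gln. Of its 100-base windows 84.0% also occur in transcripts of other genes, mainly Eif3j1, and 47.6% of those of Eif3j1 are shared, so reads of the pair may be divided by the counting and their values are uncertain. Eif3d shares 39.3% of its windows with Gm17638 and is uncertain likewise.

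Eif3f and Eif3i changed in opposite directions in the treatments. Eif3f (chr7:108934417-108942951, plus strand) encodes a subunit with an MPN domain. It had normalized counts of 11169, 10521 and 8637 in the control libraries, 15485, 15181 and 14436 after DON and 7448, 7712 and 7849 without Gln. All DON libraries were above and all Gln-free libraries below the controls, with log2 fold changes of 0.57 ± 0.10 (SE, adjusted p = 2.4e-04) and -0.37 ± 0.10 (SE, adjusted p = 0.0041) in limma. The direct limma difference, 0.97 ± 0.09 (SE, adjusted p = 1.6e-07), was the largest excess of DON over Gln-free cells among the members.

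Eif3i (chr4:129591960-129600648, minus strand), a WD-repeat subunit bound by Eif3b, had normalized counts of 7292, 6825 and 5424 in the control libraries, 9083, 8691 and 8263 after DON and 4791, 4463 and 4620.5 without Gln. Its fold changes were 0.41 ± 0.11 (SE, adjusted p = 0.0042) after DON and -0.46 ± 0.10 (SE, adjusted p = 0.0015) without Gln in limma, with a direct difference of 0.91 ± 0.10 (SE, adjusted p = 7.6e-07). The other member called in opposite directions was Eif5b (chr1:37998010-38055579, plus strand), the GTPase that joins the ribosomal subunits. Eif5b had normalized counts of 4671, 4913 and 5856 in the control libraries, 4591, 3682 and 4128 after DON and 7176, 7067 and 6375 without Gln, with fold changes of -0.32 ± 0.11 (SE, adjusted p = 0.015) and 0.44 ± 0.10 (SE, adjusted p = 0.0014) in limma. The DON fall of Eif5b did not pass the threshold without DON library 2, under quantile normalization or under total-read scaling, where its adjusted p-values were 0.089, 0.19 and 0.21.

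In the eIF4 group 2 genes rose and 6 fell after DON (33.3% and 34.7% of all genes), and 3 rose and 4 fell without Gln (34.5% and 34.9%). The rise was led in both treatments by Eif4a2 (chr16:23107444-23114136, plus strand), a paralog of the helicase gene Eif4a1. Eif4a2 had normalized counts of 4447, 3581 and 5348 in the control libraries, 7747, 8930.1 and 7613 after DON and 15253, 14203 and 13659.9 without Gln. The 3 groups did not overlap, with log2 fold changes of 0.87 ± 0.12 (SE, adjusted p = 2.9e-05) after DON and 1.73 ± 0.12 (SE, adjusted p = 8.9e-08) without Gln, and a direct limma difference of -0.83 ± 0.12 (SE, adjusted p = 1.5e-05). Eif4a1 (chr11:69666936-69672423, minus strand), chosen after its values were seen because it is the other helicase gene, fell in both, with normalized counts of 42281, 41764 and 39772 in the control libraries, 33254, 34018 and 32756 after DON and 26235, 25824 and 23622 without Gln and fold changes of -0.32 ± 0.09 (SE, adjusted p = 0.0072) and -0.69 ± 0.08 (SE, adjusted p = 9.4e-06) in limma. In RPKM, Eif4a1 was 403 ± 5.26 and Eif4a2 51.2 ± 12.2 in control cells (SD, n = 3), 357 ± 4.81 and 101 ± 8.6 after DON, and 269 ± 12.8 and 179 ± 8.84 without Gln. Eif4a1 shares 22.4% of its 100-base windows with other genes, mainly the pseudogene Eif4a-ps4, which limits its value, and its fall after DON was not called under quantile normalization.

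The largest fall of the group after DON was that of Eif4e3 (chr6:99625135-99666771, minus strand), a divergent cap-binding protein of low level, with normalized counts of 81.8, 86.5 and 83.8 in the control libraries, 45.7, 51.9 and 40.4 after DON and 65.5, 64.8 and 71.9 without Gln and a fold change of -0.87 ± 0.25 (SE, adjusted p = 0.0061) in limma. The largest fall without Gln was that of Eif4b (chr15:102073773-102097172, plus strand), which stimulates the helicase. Eif4b had normalized counts of 32074, 32354 and 28532 in the control libraries, 26945, 28192 and 28198 after DON and 16507, 16912 and 17102 without Gln. All DON libraries were below the controls, and all Gln-free libraries were below all others. Its fold change was -0.85 ± 0.08 (SE, adjusted p = 1.2e-06) without Gln and -0.17 ± 0.09 (SE, adjusted p = 0.13) after DON in limma. After DON Eif4b was called under quantile normalization and without control library 3. Of the eIF4E-binding proteins, Eif4ebp2 (chr10:61432497-61452669, minus strand), a repressor that binds eIF4E, fell to 5970.2, 6395 and 6382 normalized counts after DON and 4254, 4377 and 4455 without Gln from 7349, 7972 and 7010.2. Its limma fold changes were -0.26 ± 0.09 (SE, adjusted p = 0.016) and -0.75 ± 0.08 (SE, adjusted p = 3.1e-06), and the call after DON was lost without DON library 1, without control library 2 and under both other scalings. Eif4enif1, an eIF4E transporter, was called in neither treatment.

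Of the 12 other factors, 2 rose and 4 fell after DON (33.3% and 34.7% of all genes), and 8 rose and 1 fell without Gln (34.5% and 34.9%). Among them Eif1 (chr11:100319885-100322096, plus strand), which guards start codon choice, had the largest rise in both treatments. It had normalized counts of 19910.5, 19074 and 17311 in the control libraries, 42701, 48697 and 40549.5 after DON and 44224, 45488 and 45062 without Gln. Treated libraries were all above the controls, with log2 fold changes of 1.22 ± 0.10 (SE, adjusted p = 1.4e-07) after DON and 1.28 ± 0.08 (SE, adjusted p = 3.7e-08) without Gln in limma. In RPKM Eif1 rose from 438 ± 15.2 to 1129 ± 102 and 1149 ± 21.7 (SD, n = 3), and was the highest member after DON.

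Eif5a (chr11:69916714-69921958, minus strand), which carries hypusine and helps ribosomes through difficult peptide bonds, was the highest member per length in control cells at 1017 ± 57.4 RPKM (SD, n = 3). It had normalized counts of 50158, 49840.4 and 42066 in the control libraries, 22164, 20904 and 20988 after DON and 52715, 49974 and 50200.4 without Gln. It fell after DON (-1.15 ± 0.10 (SE, adjusted p = 2.1e-07) on the log2 scale in limma), while without Gln the change of 0.13 ± 0.09 (SE, adjusted p = 0.22) was not called, except under total-read scaling and quantile normalization. The Gln-free libraries overlapped the controls on the common scale of the 9 libraries, but lay above them in the deposited table. The direct limma difference between DON and Gln-free cells was -1.26 ± 0.08 (SE, adjusted p = 5.8e-09). The largest fall without Gln among the other factors was that of Eif2d (chr1:131153181-131187658, plus strand), a noncanonical tRNA delivery factor. Eif2d had normalized counts of 1677, 1996 and 1548 in the control libraries, 1086, 1042 and 1133 after DON and 712, 668 and 694 without Gln, with fold changes of -0.68 ± 0.11 (SE, adjusted p = 8.8e-05) and -1.30 ± 0.11 (SE, adjusted p = 3.2e-07) in limma.

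**Figure D3:**
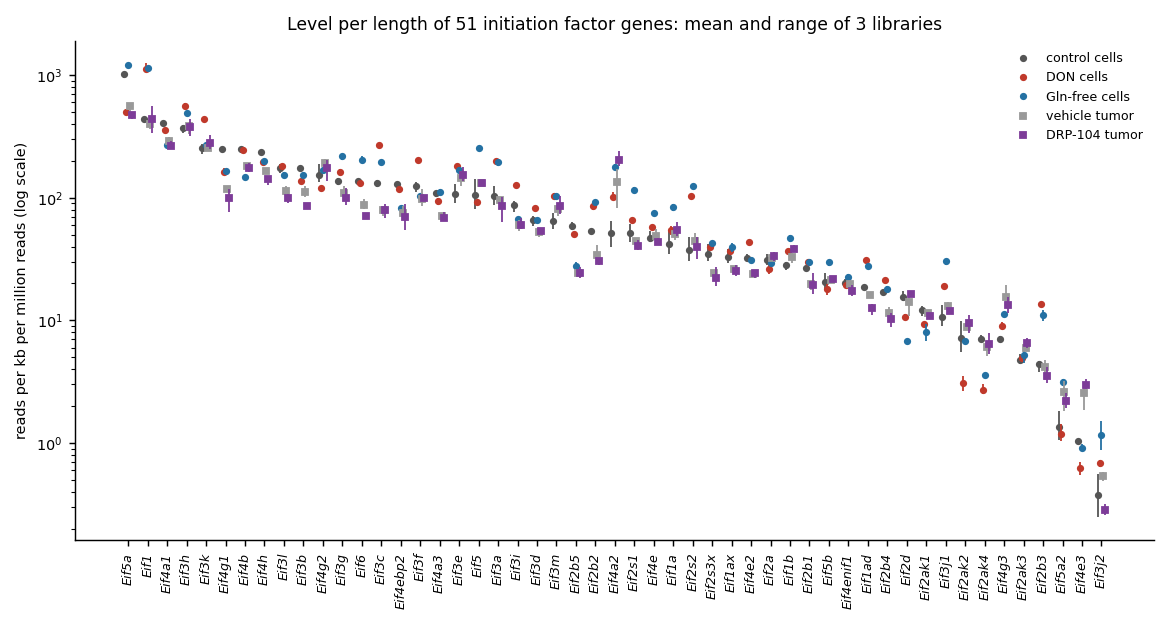
RPKM, reads per kilobase of gene length scaled to the library total (log axis), of the 51 members, ordered by their mean in control cells. Points are the mean and lines the range of 3 libraries, with circles for cells and squares for tumors. Eif5a leads in control cells, Eif1 leads after DON, and Eif3j2, Eif4e3 and Eif5a2 are the lowest genes in each group.

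Promoters were compared as a description, from RefSeq sequences (GRCm38.p6) running from 250 bases before to 50 after each start, of which 55 entries matched 42 members. The members without an entry were Eif1a, Eif2b3, Eif3e, Eif3h, Eif3i, Eif3j2, Eif4e3, Eif4g2 and Eif6. Both strands were searched for 4 motifs, in member promoters and in all promoters. The latter were not limited to genes with a mean of at least 10, as the members were. No share over genes of like level was computed. The E-box CACGTG, bound by MYC and related factors, occurred in 12 of the 55 member promoters (21.8%) and in 7.15% of all 32851 promoters, and at gene level in 10 of 42 members (23.8%) and 8.09% of 27025 genes. The members holding it were Eif1b, Eif3a, Eif3f, Eif3k, Eif4a1, Eif4e, Eif4g1, Eif4h, Eif5a and Eif5a2. By call after DON it was present in 3 of 12 members that were higher, 4 of 14 that were lower and 3 of 16 that were not called. CCAAT was found in 27.3% of member promoters and 37.4% of all, and at gene level in 35.7% of members and 41.1% of genes. TGATGNAA, the core of the response element of ATF4 with C/EBP factors, was found in 1 member (Eif2s3x, beside 3.97% of all promoters). The CRE motif TGACGTCA was found in 0 member promoters (1.79% of all).

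Stretches of promoters that hold an E-box (in capitals) are shown 5′ to 3′ on the strand of the gene for Eif5a, the strongest fall after DON among the E-box members, for Eif4g1 and Eif4h, which fell in both treatments, and for Eif3f and Eif3k, which rose after DON. Positions are counted from the RefSeq start of each promoter entry, which for Eif5a and Eif4g1 lies inside the gene span of the authors' annotation.
Eif5a, chr11:69921437-69921586 (minus strand), 200 to 51 bases before the start: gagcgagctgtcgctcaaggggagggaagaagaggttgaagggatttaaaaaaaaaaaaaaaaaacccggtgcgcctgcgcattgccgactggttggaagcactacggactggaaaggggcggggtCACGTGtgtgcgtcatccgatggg
Eif4g1, chr16:20672637-20672706 (plus strand), 90 to 21 bases before the start: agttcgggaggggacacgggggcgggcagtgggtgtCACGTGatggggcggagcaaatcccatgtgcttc
Eif4h, chr5:134639470-134639539 (minus strand), 130 to 61 bases before the start: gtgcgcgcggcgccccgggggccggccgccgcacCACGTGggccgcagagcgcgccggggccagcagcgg
Eif3f, chr7:108934305-108934384 (plus strand), 110 to 31 bases before the start: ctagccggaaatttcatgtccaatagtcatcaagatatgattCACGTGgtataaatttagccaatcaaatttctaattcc
Eif3k, chr7:28981899-28981968 (minus strand), 80 to 11 bases before the start: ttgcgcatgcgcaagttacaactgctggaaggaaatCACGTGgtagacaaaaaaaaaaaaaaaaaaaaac
These genes were chosen with their directions known, so their differing directions follow from the choice. After DON their log2 fold changes were -1.15 for Eif5a, -0.75 for Eif4g1, -0.40 for Eif4h, 0.57 for Eif3f and 0.65 for Eif3k. The part of the E-box in these changes was not tested. No motif match here was tested as a binding site.

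DON-treated and Gln-free cells were then compared directly, on reads scaled over the 9 culture libraries. In limma 14 of 51 members had more and 20 less RNA in DON than in Gln-free cells, beside 31% higher, 32.3% lower and 63.3% changed of 13514 genes tested. The 5 largest differences belonged to Eif5, Eif5a2, Eif5a, Eif2ak2 and Eif3f. Eif5 (chr12:111538101-111546753, plus strand), the GTPase activator of eIF2, had normalized counts of 11949.9, 10678 and 17231 in the control libraries, 11196, 10649 and 10341 after DON and 29804, 29448 and 30260.0 without Gln, so that Gln-free cells stood above both other groups. Its direct difference was -1.48 ± 0.13 (SE, adjusted p = 8.4e-08) and its fold change without Gln 1.22 ± 0.14 (SE, adjusted p = 6.6e-06) in limma. Eif5a2 (chr3:28781311-28798846, plus strand), a paralog of Eif5a at a far lower level, had normalized counts of 190.4, 177 and 283 in the control libraries, 211, 164 and 150.2 after DON and 498, 470.2 and 425 without Gln and a direct limma difference of -1.42 ± 0.18 (SE, adjusted p = 7.0e-06). Of the eIF2 and eIF2B genes 2 had less RNA in DON than in Gln-free cells (Eif2s1 and Eif2s2) and 3 had more (Eif2b3, Eif2b4 and Eif2b5). The call of Eif2s2, at -0.27 ± 0.11 (SE, adjusted p = 0.041) in limma, was lost when any library other than Gln-free library 3 was left out, and that of Eif2b3, at 0.28 ± 0.11 (SE, adjusted p = 0.029), when any other than Gln-free library 1 was left out. The call of Eif2b4, at 0.25 ± 0.09 (SE, adjusted p = 0.02) in limma, was lost without DON library 1 and without Gln-free library 3.

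**Figure D4:**
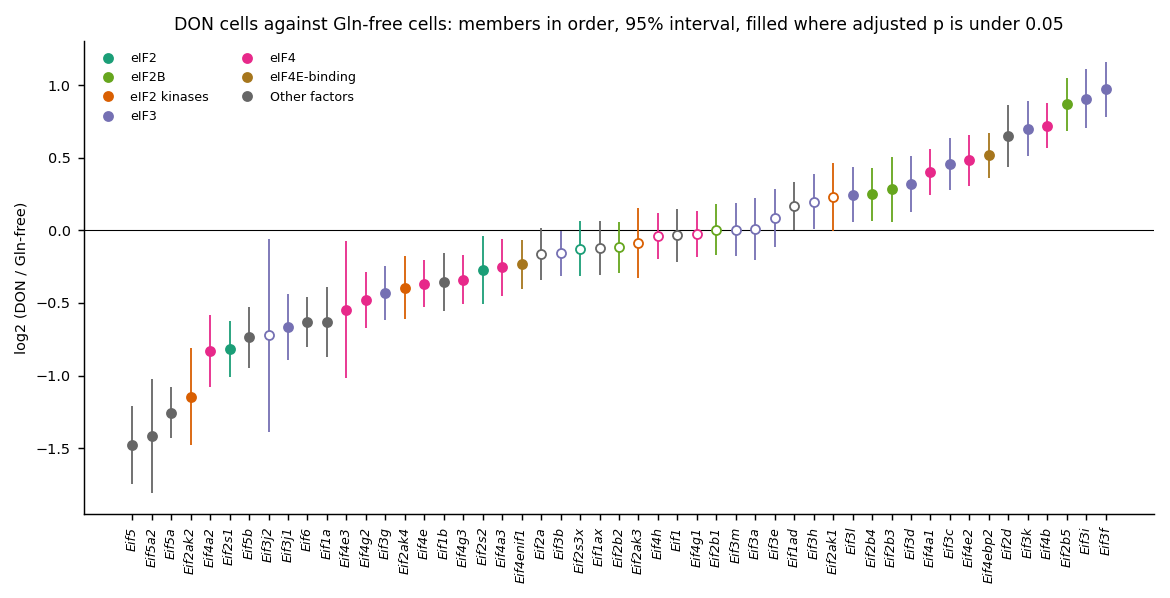
Log2 difference of DON-treated minus Gln-free cells for the 51 members in order, with 95% intervals, colored by group. Filled points have a limma adjusted p under 0.05. Eif5, Eif5a2 and Eif5a lie lowest and Eif3f, Eif3i and Eif2b5 highest.

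In tumors no member passed the test. In limma 0 of 51 members had an adjusted p under 0.05 between DRP-104 and vehicle tumors, as did edgeR and DESeq2 on recovered reads with 0 each, and 2 had an unadjusted p under 0.05. Of all 15454 genes 0% were called by limma, and 5.01% had an unadjusted p under 0.05, while edgeR called 0 and DESeq2 70 of 28582 genes. The tumor groups did not overlap for 7 members, 3 higher and 4 lower, beside 10.6% of all genes. In these bulk samples fewer cells of a type and less RNA per cell cannot be told apart, and the part of the host cells in these values was not tested.

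The member with the smallest unadjusted p was Eif4a2, with normalized counts of 8430.1, 4275 and 7746 in the vehicle tumors and 9717, 9239 and 11908 in the DRP-104 tumors. All DRP-104 tumors were above all vehicle tumors, and the log2 fold change was 0.65 ± 0.26 (SE, adjusted p = 0.92) in limma. Eif1ad, a relative of eIF1A, had normalized counts of 735, 727 and 747 in the vehicle tumors and 538, 607 and 612 in the DRP-104 tumors, and a log2 fold change of -0.33 ± 0.14 (SE, adjusted p = 0.92) in limma. Eif3b had normalized counts of 5376, 7117 and 6019.9 in the vehicle tumors and 4941, 5103 and 4503 in the DRP-104 tumors, and a log2 fold change of -0.34 ± 0.15 (SE, adjusted p = 0.92) in limma. For both, the groups did not overlap. The FPKM table of the authors, whose columns do not match these tumors, gave a log2 fold change of -0.24 for Eif4a2, 0.0018 for Eif1ad and 0.37 for Eif3b, and the sign was the same as here for 21 of 51 members. Over 10277 genes, taken as deviations from the mean of each gene, correlations of its columns with these tumors lay between -0.56 and 0.45. No column therefore had a close partner among these tumors, in any order of the columns. Which samples that table holds was not tested. The directions given for tumors follow the headings of the normalized-count table.

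The intervals in tumors were wide enough to hold moderate changes. Eif2s2 had normalized counts of 2806, 4038 and 3317 in the vehicle tumors and 3867, 3049 and 2334 in the DRP-104 tumors with a log2 fold change of -0.15 (95% interval -0.65 to 0.35). Eif2b3 had 222, 345 and 316 in the vehicle tumors and 229.9, 235 and 283 in the DRP-104 tumors with -0.22 (-0.76 to 0.32). Eif2ak4 had 652, 638 and 516 in the vehicle tumors and 555, 588 and 758 in the DRP-104 tumors with 0.07 (-0.36 to 0.50). The groups overlapped for each of these genes. They did not for Eif2ak3, which had normalized counts of 504, 487 and 516 in the vehicle tumors and 536, 527 and 593 in the DRP-104 tumors and a log2 fold change of 0.13 (-0.21 to 0.48), not called. The log2 fold changes of the other 8 genes of eIF2, eIF2B and the kinases lay between -0.15 (Eif2b4) and 0.11 (Eif2ak2).

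Because a call in cells and none in tumors is not a difference, the DRP-104 effect in tumors minus the DON effect in cells was tested. The difference was above 0 for 7 members and below 0 for 9 in limma, beside 19.1% above, 14% below and 33.1% in either direction among 15070 genes. Under quantile normalization these counts were 4 and 13 and under total-read scaling 4 and 18. Of the 16 calls, those of Eif2ak1, Eif2a and Eif4e3 were lost under both other scalings, without the filter on low means and with 8, 9 and 7 of 12 single libraries left out, respectively. The 5 largest differences in limma were those of Eif2b3 at -1.70 ± 0.25 (SE, adjusted p = 1.8e-04), Eif3j2 at -1.63 ± 0.52 (SE, adjusted p = 0.028), Eif2ak4 at 1.58 ± 0.21 (SE, adjusted p = 1.1e-04), Eif2s2 at -1.50 ± 0.26 (SE, adjusted p = 7.8e-04) and Eif2ak2 at 1.45 ± 0.25 (SE, adjusted p = 7.6e-04) on the log2 scale. For Eif2b3, Eif2ak4, Eif2s2 and Eif2ak2 the tumor effect was nearer to 0 than the DON effect, at -0.22, 0.07, -0.15 and 0.11. Eif3j2 had 0.77 in cells and -0.86 in tumors, neither called, and its difference was not called without vehicle tumor 1, any 1 DON library, or control library 1 or 2. Drug, dose, time and the cells present differ between these experiments and cannot be told apart.

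**Figure D5:**
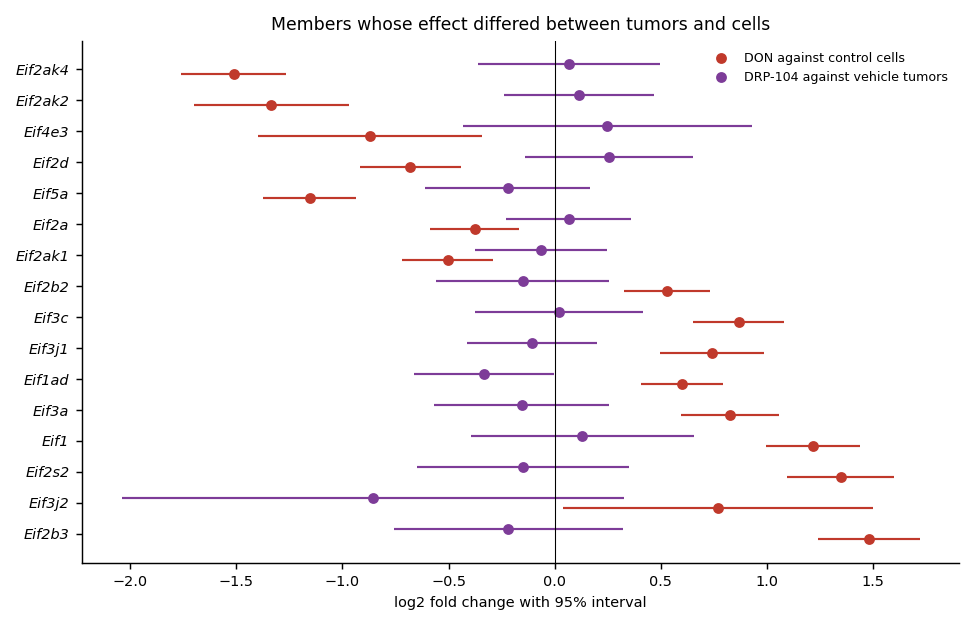
The 16 members whose effect differed between tumors and cells (limma adjusted p under 0.05 for the difference). Points are log2 fold changes and lines 95% intervals, for DON against control cells and DRP-104 against vehicle tumors. Eif2ak4 and Eif2ak2 lie far below 0 in cells, Eif2b3, Eif2s2 and Eif1 far above it, and the tumor intervals hold 0 except for Eif1ad.

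Other genes of translation were examined in 6 lists of 52 genes, of which 51 were tested in each comparison. After DON 25 rose and 9 fell (33.3% and 34.7% of all genes), and without Gln 23 rose and 17 fell (34.5% and 34.9% of all genes), while 0 were called in tumors by limma, with 0 at an unadjusted p under 0.05. The DRP-104 effect in tumors minus the DON effect was above 0 for 4 and below 0 for 13 (19.1% and 14% of all genes). These log2 differences lay between -3.79 and 1.86 over the 51 genes. Among the 11 genes listed as partners of eIF2 phosphorylation, 6 rose and 2 fell after DON, and 6 rose and 5 fell without Gln. The list includes Abce1, whose part in that phosphorylation was not examined. Ppp1r15a (GADD34), which directs a phosphatase to eIF2, had the largest rise, with normalized counts of 631, 581 and 655 in the control libraries, 7081, 6875 and 6955 after DON and 8483, 8809 and 7820.0 without Gln and log2 fold changes of 3.48 ± 0.09 (SE, adjusted p = 2.7e-12) and 3.77 ± 0.09 (SE, adjusted p = 2.4e-11) in limma. Prkra, an activator of PKR, had the largest fall, at -1.53 ± 0.13 (SE, adjusted p = 1.2e-07) and -1.36 ± 0.12 (SE, adjusted p = 6.0e-07) in limma. Impact, an inhibitor of GCN2 named after its values were seen, had normalized counts of 535, 524 and 671 in the control libraries, 2152, 2099.9 and 2169 after DON and 1408, 1466 and 1365 without Gln and fold changes of 1.89 ± 0.11 (SE, adjusted p = 3.7e-09) and 1.32 ± 0.12 (SE, adjusted p = 5.4e-07) in limma.

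Of 17 partners of the cap complex, 8 rose and 3 fell after DON (33.3% and 34.7% of all genes), and 8 rose and 6 fell without Gln (34.5% and 34.9%). Eif4ebp1, the repressor of eIF4E that the rule for members leaves out, had normalized counts of 4944, 4797 and 3850.4 in the control libraries, 10874, 10146 and 10053 after DON and 6158, 5828 and 6350.4 without Gln, and rose by 1.19 ± 0.10 (SE, adjusted p = 2.0e-07) after DON and by 0.46 ± 0.10 (SE, adjusted p = 0.001) without Gln in limma, opposite to its paralog Eif4ebp2. The largest rise after DON was that of Pabpc4, a poly(A)-binding protein, at 1.66 ± 0.09 (SE, adjusted p = 2.6e-09), and without Gln that of Paip1, which binds such proteins, at 1.01 ± 0.08 (SE, adjusted p = 3.4e-07) in limma. The largest fall in both was that of Mknk2, a kinase of eIF4E, at -1.14 ± 0.10 (SE, adjusted p = 1.7e-07) and -1.47 ± 0.09 (SE, adjusted p = 2.8e-08) in limma.

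Of 8 genes listed under elongation 5 rose and 0 fell after DON in limma, with 6 at an unadjusted p under 0.05, and without Gln 1 rose and 4 fell. Among all genes 33.3% were higher and 34.7% lower after DON, and 34.5% and 34.9% without Gln. Eef1e1, a component of the tRNA synthetase complex, had the largest rise in both, at 1.08 ± 0.12 (SE, adjusted p = 3.3e-06) and 1.38 ± 0.13 (SE, adjusted p = 7.5e-07), and Eef2k, the kinase of eEF2, the largest fall without Gln, at -1.09 ± 0.11 (SE, adjusted p = 2.3e-06) in limma. By these roles neither is an elongation factor itself, and Eef1e1 was the 1 gene of the list that rose without Gln. Eef2, which moves the ribosome along the mRNA, had the largest excess of DON over Gln-free cells in limma, 1.25 ± 0.11 (SE, adjusted p = 1.2e-07), with normalized counts of 161895, 171182 and 130921 in the control libraries, 317091, 315028 and 298547 after DON and 121622, 127422 and 142407 without Gln. Of 4 genes listed under reinitiation and ribosome release (Denr, Mcts1, Mcts2 and Abcf3), 2 rose after DON, led by Abcf3 at 0.45 ± 0.09 (SE, adjusted p = 7.0e-04), and 3 without Gln, led by Mcts2 at 1.49 ± 0.28 (SE, adjusted p = 3.6e-04) in limma. The part of Abcf3 in either process was not examined. Mcts2 is a low gene, with normalized counts of 63.5, 32.9 and 40.9 in the control libraries and 155, 113 and 108 without Gln. Windows shared with other genes were not examined for these lists. Of 3 termination factors Etf1 rose in both, by 0.42 ± 0.11 (SE, adjusted p = 0.0031) and 0.74 ± 0.11 (SE, adjusted p = 6.7e-05), and Gspt1 fell after DON (-0.24 ± 0.09 (SE, adjusted p = 0.028) in limma), a call lost without DON library 1 or 3. Of 8 mitochondrial translation factors tested, 3 rose and 3 fell after DON, with Mtrf1 at 0.91 ± 0.20 (SE, adjusted p = 0.0012) and Gfm2 at -0.70 ± 0.13 (SE, adjusted p = 2.1e-04), and 4 rose and 2 fell without Gln, with Mtrf1l at 1.06 ± 0.17 (SE, adjusted p = 1.1e-04) and Tufm at -0.97 ± 0.09 (SE, adjusted p = 5.9e-07) in limma.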

How the data were processed

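RNA was sequenced from 15 samples, in libraries that the study's provider prepared. Part of the genotype of the cell line is not reported here. Per the labels and the study's methods, the authors aligned reads (HISAT2 and STAR 2.5 are named, with GRCm39) and deposited gene counts divided by DESeq2 size factors (a signal per gene, called the normalized count), in one table per comparison, with their own fold changes and p-values, which were not used. The authors also deposited FPKM values for tumors, which served as an alternative. The gene positions in that table match GRCm38, in which 50 of 51 members lay within 5 kb of GENCODE M21. Columns of per-sample values left unused numbered 0. Control columns carry no replicate number that ties them to single samples.

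Genes with a mean of at least 10 were tested with limma 3.58.1 in R 4.3.3 on log2(normalized count + 1), with 3 libraries per group and Benjamini-Hochberg adjustment over all genes tested. Normalized counts were whole multiples of 1 read within 0.0051 for at least 99.9946% of values, so reads were recovered up to a common factor (41.9% to 72.7% of low read numbers in a library were even), and the 9 culture libraries were put on 1 scale for the direct comparison. In Gln-free library 3 a read was worth 1.00 normalized counts, which leaves little to check the recovery by, and its share of even numbers, 71.5%, was within the 69.6% to 72.7% of the culture libraries. The same reads gave edgeR 4.0.16 and DESeq2 1.42.0 alternatives. The test was checked on simulated data. Alternatives were pseudocounts of 0.5 and 5, no filter, a mean of at least 50, quantile normalization, a threshold of 0.01, a replicate block, the FPKM table, each library left out and, added after the data were seen, scaling by total reads and edgeR on reads divided by 2. Whether counting used strand is not given in the sources used here.

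Named were all eIF2, eIF2B and kinase genes, and the largest called rise and fall of each other group and list against control cells. Members called in opposite directions were named too, with the 5 largest called member differences between DON and Gln-free cells and between tumors and cells. Also named were the 3 smallest p-values in tumors, Eif4ebp1, and Eef2 for DON against Gln-free cells. The members and lists were chosen with earlier results of these data known.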

Additional observations from a re-analysis of the deposited data

Results flagged for a closer look

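The effect of DRP-104 in tumors differed from that of DON in cells, by a limma test of the difference itself, for 16 members, with 7 above 0 and 9 below 0. Their share, 31.4% of members, was near the 33.1% of all 15070 genes (19.1% above and 14% below 0). Above 0 were the kinases Eif2ak1, Eif2ak2 and Eif2ak4 with Eif2a, Eif2d, Eif4e3 and Eif5a, and below 0 were Eif2b2, Eif2b3, Eif2s2, Eif3a, Eif3c, Eif3j1, Eif3j2, Eif1 and Eif1ad. The calls of Eif2ak1, Eif2a and Eif4e3 were lost under total-read scaling, quantile normalization and no filter, and with 8, 9 and 7 of 12 single libraries left out, respectively, and that of Eif3j2 with 6 of 12. The experiments differ in drug, dose, duration and cells present, which cannot be told apart. The sum of 7 epithelial markers was 6447 to 8461 CPM in vehicle and 6605 to 9583 CPM in DRP-104 tumors, and its part in these differences was not tested.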

How the results depend on the processing

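Of the 32 members called after DON, 32 were called by edgeR and by DESeq2, and of the 36 called without Gln likewise 36. Members higher after DON numbered 16, but 25 under quantile normalization and 25 under total-read scaling, and members with a difference above 0 between tumors and cells numbered 7, but 4 under both, without the filter, with the replicate block and at the threshold of 0.01, with 18 below 0 under total-read scaling. With each library left out in turn, members higher and lower numbered 15 to 21 and 15 to 19 after DON, 23 to 26 and 12 to 16 without Gln, 11 to 14 and 16 to 20 for DON against Gln-free cells, 4 to 7 and 8 to 14 for tumors against cells, and 0 in tumors. The cause was not tested.

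The sign of some small, uncalled log2 changes turned. Under total-read scaling Eif2ak3 was 0.042 after DON and Eif2b4 0.10 without Gln, and under quantile normalization Eif2b2 was 0.021 and Eif2s3x 0.016 for DON against Gln-free cells. In the FPKM table Eif2ak1 was 0.0012, Eif2ak2 -0.58, Eif2ak4 -0.061, Eif2b2 0.16, Eif2b3 0.021, Eif2b4 0.13, Eif4a2 -0.24, Eif1ad 0.0018, Eif3b 0.37 and Eif4ebp1 0.013. With 1 library left out, the ranges that crossed 0 were -0.021 to 0.075 for Eif2b1 and -0.0048 to 0.15 for Eif2s3x after DON, and -0.31 to 0.062 for Eif2ak2, -0.063 to 0.13 for Eif2ak3 and -0.054 to 0.049 for Eif2b4 without Gln. In tumors they were -0.068 to 0.16 for Eif2ak4, -0.19 to 0.070 for Eif2b1, -0.30 to 0.0034 for Eif2b2, -0.023 to 0.061 for Eif2b5, -0.33 to 0.036 for Eif2s2 and -0.28 to 0.0090 for Eif2s3x. For Eif2b1 they were -0.032 to 0.053 for DON against Gln-free cells and -0.22 to 0.044 for tumors against cells.

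Libraries with the same number did not deviate together (r = -0.27, 0.04 and -0.36 in tumors, -0.03, 0.0028 and 0.07 between DON and Gln-free cells, 0.02, 0.0031 and 0.03 between DON and control cells, and 0.03, -0.03 and -0.03 between Gln-free and control cells). Control libraries were numbered by their column headings, which no label ties to single samples. With the replicate block 32 of 32 members called after DON, 36 of 36 without Gln, 33 of 34 for DON against Gln-free cells and 12 of 16 for tumors against cells were called again (Eif2a, Eif2ak1, Eif3j2 and Eif4e3 were not), and 0 in tumors.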
